A study of Mus musculus with 2 samples.

Results

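The mir-15, mir-16, mir-195 and mir-497 family of the mouse consists here of 6 hairpin genes in 3 clusters. They are Mir15a with Mir16-1, Mir15b with Mir16-2, and Mir195a with Mir497. The 6 genes were chosen by name from the 2202 annotated miRNA genes of the tables, and all 6 were found. The data come from microRNA-seq of adrenal gland, the organ that makes steroid hormones in its cortex and catecholamines in its medulla. The 2 libraries were biological replicates 1 and 2 of a single group of adult males aged 8 to 10 months, strain 5xFAD/CAST, and the RNA sequenced was shorter than 30 nucleotides. 5xFAD is a transgenic Alzheimer's disease model whose transgenes are driven by the neuronal Thy1 promoter, and CAST is an inbred strain derived from wild castaneus mice. Whether these animals carried the transgene is not stated in the labels. Both libraries name the same donor record with separate sample records, so the spread between them may be technical in part.

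A microRNA is cut from a hairpin transcript, loaded into Argonaute and pairs with messenger RNAs mainly through its seed, bases 2 to 8 counted from the 5′ end, which lowers translation or stability of the target. The family is best known for restraining cell division and survival, with cyclins, cyclin-dependent kinases, Wee1 and Bcl2 among its established targets. MIR15A and MIR16-1 are lost in many chronic lymphocytic leukaemias, and the mir-195 and mir-497 genes are known for the arrest of heart muscle cell division after birth.

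The mature sequences show what defines the family. The 5p arms of all 6 genes shared 1 seed, here in capitals, while the 6 genes made 5 different 5p sequences because Mir16-1 and Mir16-2 encode the same one. The sequences are RefSeq's, build GRCm38.p6.
miR-15a-5p: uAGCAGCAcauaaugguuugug
miR-15b-5p: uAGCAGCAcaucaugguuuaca
miR-16-5p: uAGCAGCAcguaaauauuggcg
miR-195a-5p: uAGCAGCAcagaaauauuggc
miR-497a-5p: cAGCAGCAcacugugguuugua

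Outside the seed the arms fell into a gradient. miR-195a-5p matched miR-16-5p at 19 of 21 bases and differed by G10A and U11G, with miR-16-5p as reference and positions counted from its 5′ end. miR-15a-5p matched miR-15b-5p at 18 of 22 bases and miR-16-5p at 16 of 22. miR-497a-5p stood farthest from miR-16-5p, with 11 of 22 bases equal, and was nearer to miR-15a-5p with 17 of 22. The arms thus formed a mir-16 and mir-195 side and a mir-15 and mir-497 side, and each of the 3 clusters held 1 gene of each. Beyond the seed, all 6 arms had the same base at positions 9, 17 and 18.

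The 3p arms shared no seed with one another. The 6 of them had 6 different seeds, and none of these seeds occurred in another mature miRNA of the RefSeq table. The 3p arms of the mir-16 genes, printed below with seeds in capitals, are shown because they tell these loci apart.
miR-16-1-3p: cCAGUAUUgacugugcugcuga
miR-16-2-3p: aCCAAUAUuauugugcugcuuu

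Each cluster is compact. Mir15a (ENSMUSG00000093007.1, chr14:61632027-61632110 of GRCm38, minus strand) lies in an intron of the noncoding gene Dleu2, and Mir16-1 (ENSMUSG00000092995.1, chr14:61631880-61631972) overlaps a Dleu2 exon 54 bases downstream. Mir15b (ENSMUSG00000065580.2, chr3:69009772-69009835, plus strand) and Mir16-2 (ENSMUSG00000065606.1, chr3:69009902-69009996) lie 66 bases apart in introns of Smc4, which encodes a condensin subunit that compacts chromosomes in mitosis. Mir497 (ENSMUSG00000105220.1, chr11:70234717-70234800, plus strand) lies 241 bases upstream of Mir195a (ENSMUSG00000065411.2, chr11:70235042-70235135). No other gene of that strand is annotated over either, but the gene Mir497b covers all 84 bases of Mir497 on the opposite strand.

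**Figure D1:**
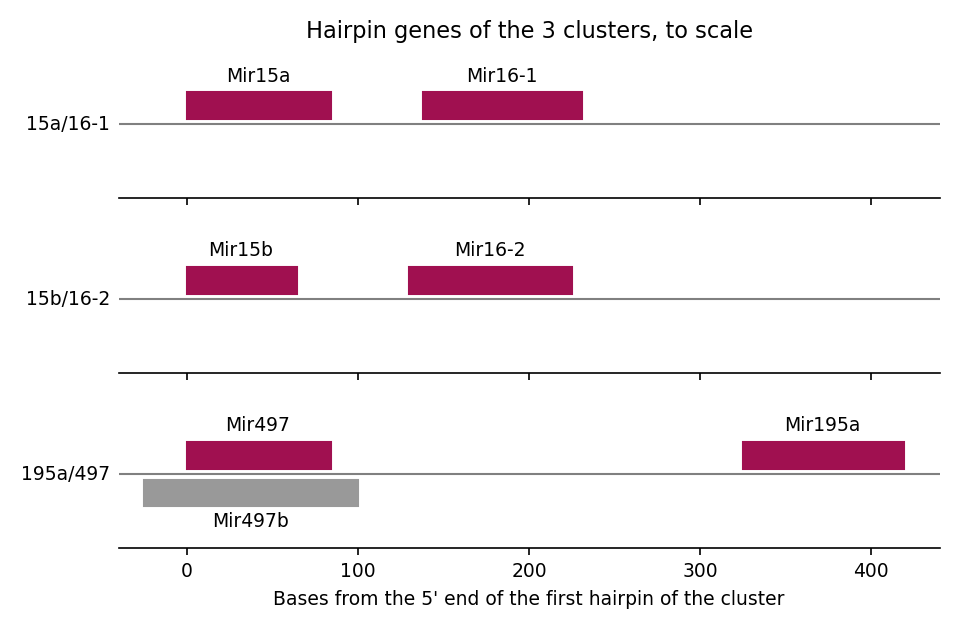
Hairpin genes of the 3 clusters drawn to scale, with the horizontal axis in bases from the 5′ end of the first hairpin. Red boxes are family genes, and the grey box is Mir497b on the opposite strand; 54, 66 and 241 bases separate the hairpins of a cluster.

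The family was present in the adrenal gland at moderate levels. Levels are counts per 1000000 (CPM), the reads on the strand of a gene scaled to all such reads of miRNA genes, which numbered 6783227 in replicate 1 and 3084602 in replicate 2. Together the 6 genes held 0.359% of these reads in replicate 1 (Wilson 95% interval 0.355 to 0.364) and 0.386% in replicate 2 (0.379 to 0.393). The mean was 0.373% ± 0.0191 (SD, n = 2). All 6 had a mean above 100 CPM. The intervals cover counting error only and treat each read as an independent draw within 1 library. The tables hold no molecular identifiers, so repeated reads of 1 molecule cannot be told apart and the intervals may be too narrow.

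Mir16-1, which encodes miR-16-5p, was the highest by mean, at 1203 CPM in replicate 1 (8161 reads) and 1215 CPM in replicate 2 (3747 reads). Its mean of 1209 ± 8.22 CPM ranked 57 among all miRNA genes by reads assigned, and its level is a lower limit, as given below. Mir15a, its cluster mate, reached 1175 CPM (7967 reads) and 802 CPM (2473 reads), a mean of 988 ± 264 CPM. Replicate 1 was therefore the higher library for Mir15a, while Mir16-1 stood at nearly the same level in both.

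Mir195a, known from heart and skeletal muscle, reached 470 CPM in replicate 1 (3190 reads) and 1129 CPM in replicate 2 (3483 reads), a mean of 800 ± 466 CPM. Replicate 2 gave more Mir195a reads than replicate 1 although it held fewer miRNA reads in all. Mir497, from the same cluster, stood at 277 CPM (1881 reads) and 222 CPM (685 reads), a mean of 250 ± 39.1 CPM, with replicate 1 the higher.

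Both genes in Smc4 were among the lower members by reads assigned, and each differed less between the libraries than Mir15a or Mir195a. Mir15b reached 258 CPM (1752 reads) and 253 CPM (780 reads), a mean of 256 ± 3.83 CPM. Mir16-2 reached 209 CPM (1416 reads) and 242 CPM (748 reads), a mean of 226 ± 23.9 CPM. The cluster as a whole held 13.0% of the family's assigned reads in replicate 1 and 12.8% in replicate 2.

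**Figure D2:**
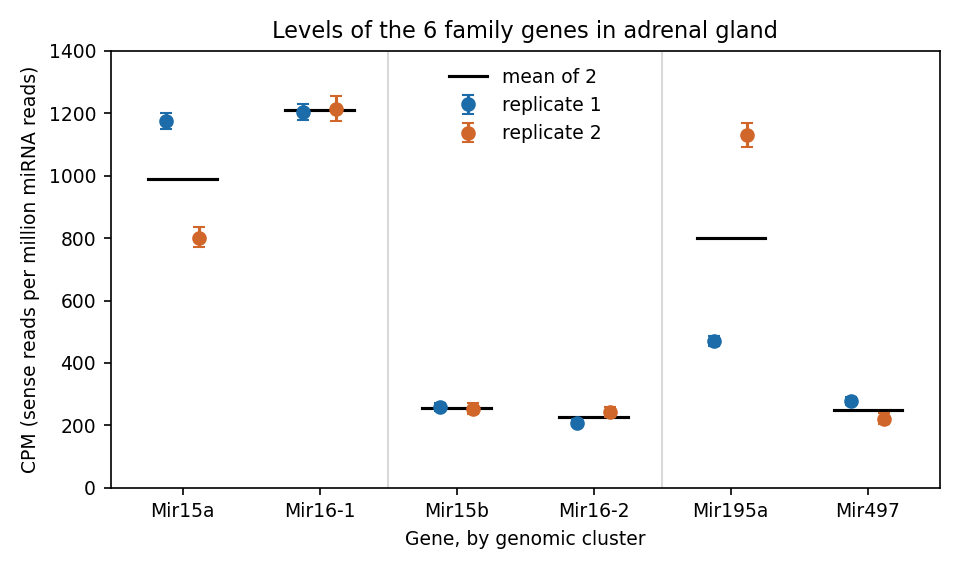
CPM of each family gene in replicate 1 and replicate 2 (points, with exact 95% intervals of read counting) and the mean of both (bars), with the 3 clusters side by side. Mir16-1, Mir15b, Mir16-2 and Mir497 lie close together in the 2 libraries, whereas Mir195a lies at 470 and 1129 CPM and Mir15a at 1175 and 802 CPM.

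By reads assigned, the order of the levels was firm only between tiers. An order was accepted where both libraries gave it and the log2 gap in each was larger than the difference of either gene between the replicates. By this rule 6 of the 15 pairs of members were ordered: Mir16-1 and Mir15a each stood above Mir15b, Mir16-2 and Mir497. The orders above Mir16-2 hold for assigned reads only, since its level is a lower limit, as given in the next paragraph. The order Mir16-1, Mir15a, Mir195a, Mir15b, Mir497, Mir16-2 by mean held no pair of neighbours that passed. Mir195a was above Mir15b, Mir16-2 and Mir497 in both libraries, but its gaps in replicate 1 were smaller than its own replicate difference. From highest to lowest mean the members spanned 5.36-fold by reads assigned, from Mir16-1 to Mir16-2, whose levels are both lower limits.

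The levels of Mir16-1 and Mir16-2 are lower limits, provided that each assigned read came from its gene. Their hairpins share a run of 23 bases that starts at the first base of miR-16-5p, and reads that map to several places were assigned to no gene. The run is in capitals below, with 6 bases of each hairpin on either side.
Mir16-1: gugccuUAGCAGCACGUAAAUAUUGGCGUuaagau
Mir16-2: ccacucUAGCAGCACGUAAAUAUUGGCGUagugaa

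A read of 20 to 23 bases that starts at the first base of miR-16-5p is the same in both genes, and so is one of 20 to 22 bases that starts 1 base later. A read of 24 or 25 bases from the first base differs between them, as does a read of 20 to 25 bases that starts 1 base earlier. The read of 24 bases differs only in its last base, and whether such reads were assigned to the right gene was not tested. The reads counted for these genes can therefore come from longer or shifted forms of the 5p arm or from the 3p arms, and the tables do not say which. Multimapping reads made up 30.3% of all reads in replicate 1 and 32.1% in replicate 2, and they are not split by gene. The other 4 members share at most 16 bases in a row with any miRNA hairpin at another locus, read on its own strand. Copies outside annotated hairpins were not searched, and whether CAST variants in these hairpins lowered a count was not tested.

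By the reads assigned, Mir16-1 exceeded Mir16-2 by 5.76-fold in replicate 1 (exact 95% interval 5.45 to 6.10) and 5.01-fold in replicate 2 (4.63 to 5.43). Their 5p arms are identical, so this ratio compares only the part of each gene's reads that could be told apart. Without both mir-16 genes, the other 4 members held 0.218% of the reads in replicate 1 and 0.241% in replicate 2.

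At the Mir497 locus the strand decided whether the gene was seen. All reads there lay on the strand of Mir497, 1881 in replicate 1 and 685 in replicate 2. Mir497b had 0 reads in both, which allows up to 0.442 CPM in replicate 1 and 0.973 CPM in replicate 2, the level of 3 reads. In the deposited column that joins both strands, Mir497 stands at 0 in both libraries, because a read in 2 overlapping genes counts as ambiguous there. None of the 6 members had a read on its opposite strand.

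By reads assigned to hairpin genes, most reads of genes with the family's seed belonged to a gene outside the 3 clusters. Of 1674 different mature sequences in the RefSeq table, 10 had this seed (0.597%), and they come from 11 genes, the 6 members and 5 others. Mir322, an X-linked gene of another cluster, had 22397 CPM in the first library and 17849 CPM in the second. It thus held 86.2% of the reads of these 11 genes in replicate 1 (Wilson 95% interval 86.0 to 86.3) and 82.2% in replicate 2 (81.9 to 82.5). The 6 members held the rest, 13.8% and 17.8%, and Mir322 exceeded their sum by 6.23-fold and 4.62-fold.
miR-322-5p: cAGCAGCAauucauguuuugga
miR-503-5p: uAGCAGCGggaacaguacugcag

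The sequences are shown because the seeds, in capitals, set these cluster mates apart: miR-322-5p has the family seed and miR-503-5p does not. Mir503 stood at 190 CPM and 220 CPM, near the lowest members. Mir195b, Mir6342, Mir6353 and Mir6419 also encode the seed, and each had 0 reads in both libraries. These shares refer to hairpin genes and not to arms, since a count joins both. Reads of miR-16-5p left out as multimapping would raise the members' share by an unknown amount, since they are not split by gene. The excess of Mir322 therefore holds for assigned reads only, and the intervals do not cover the reads left out. Without Mir16-1 and Mir16-2, Mir322 held 89.6% of the remaining reads, a value that does not bound the effect of the multimapping reads.

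**Figure D3:**
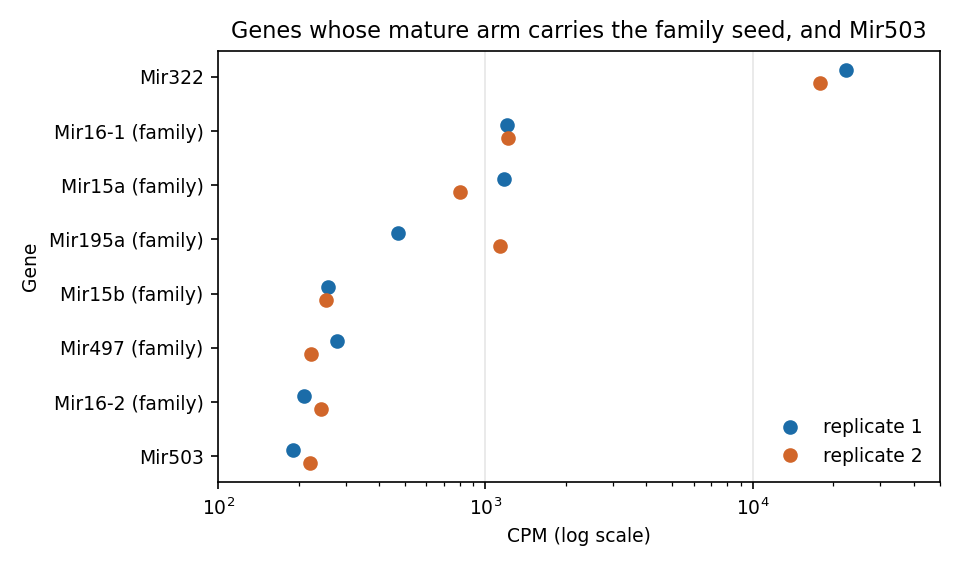
CPM on a log axis of the genes with the family seed that had reads, and of Mir503, in replicate 1 and replicate 2. Mir322 lies at 22397 and 17849 CPM, and the highest family gene, Mir16-1, at 1203 and 1215 CPM.

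Scaled to total sense reads, the log2 ratio of replicate 2 to replicate 1 was 0.105 for the family's summed assigned reads (exact 95% interval 0.073 to 0.137). Mir195a, Mir15a, Mir497 and Mir16-2 differed more than this sum, and Mir16-1 and Mir15b less. Members differed in both directions, which partly cancels in a sum. The difference of a gene is log2(CPM + 1) of replicate 2 minus replicate 1, and an absolute value of at least 1, which is 2-fold, was called. With 1 library on each side there was no test. Of the 280 genes with a mean of at least 10 CPM, 30 were called, which is 10.7%. Of the 6 members 1 was called, Mir195a, with a difference of 1.26 and an exact 95% interval of 1.19 to 1.33 from read counting on the log2 ratio. Calls higher in replicate 2 numbered 17 of the 280 genes, or 6.07%, and Mir195a was the 1 member among these 17. The 6 members are too few to tell their count from these shares.

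The other members differed less. Mir15a differed by −0.55 (−0.62 to −0.49), Mir497 by −0.32 (−0.45 to −0.19) and Mir16-2 by 0.22 (0.09 to 0.35), so that their intervals did not hold 0 when libraries were scaled to total sense reads. With the same scaling the intervals of Mir16-1, at 0.01 (−0.04 to 0.07), and Mir15b, at −0.03 (−0.15 to 0.09), held 0. These small differences depended on the scaling, as given in the next paragraph. The median absolute difference was 0.27 over the 6 members and 0.28 over the 280 genes.

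Scaling changed no call among the members. With the TMM factors of edgeR the median of the 280 genes moved from 0.01 to −0.09, and with the size factors of DESeq2 to −0.12. Mir195a stood at 1.16 and 1.13 under these scalings and Mir15a at −0.65 and −0.69. Mir16-1 changed sign, to −0.09 (−0.14 to −0.03) and −0.12 (−0.18 to −0.07), and its interval no longer held 0. The interval of Mir15b then lay below 0 as well, at −0.26 to −0.01 with TMM and −0.29 to −0.04 with DESeq2. That of Mir16-2 held 0 under both, at −0.02 to 0.24 and −0.05 to 0.21. Mir15a, Mir497 and Mir195a kept intervals without 0 and their directions under all 3 scalings.

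**Figure D4:**
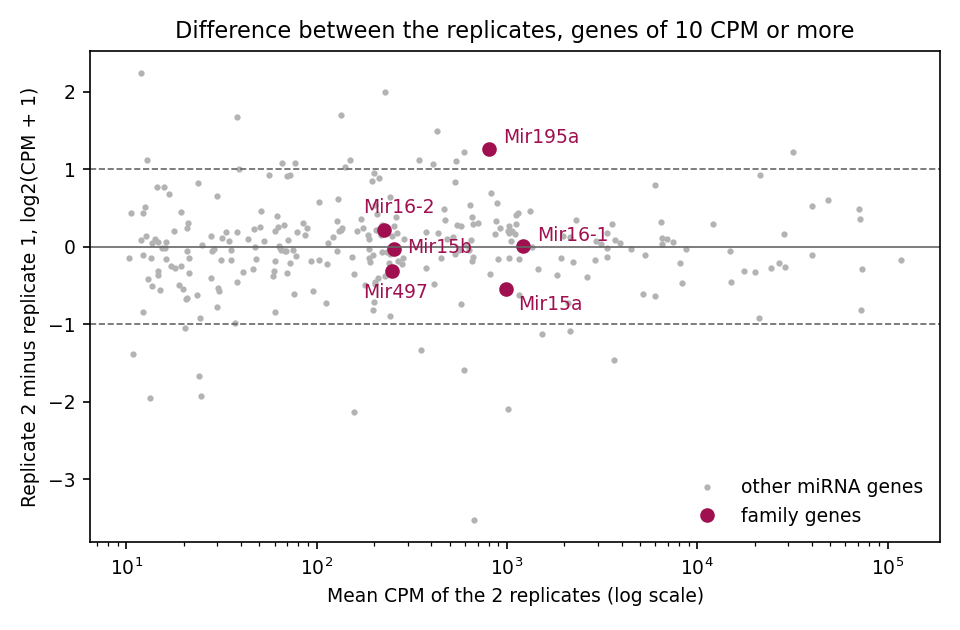
Difference between the replicates against mean CPM (log axis) for the 280 genes of at least 10 CPM, with family genes in red and dashed lines at the 2-fold limit. Mir195a at 1.26 is the 1 family gene beyond the limit, and the other 5 lie between −0.55 and 0.22.

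Cluster mates did not differ alike in every cluster. Mir195a exceeded Mir497 by 1.70-fold in replicate 1 (exact 95% interval 1.60 to 1.80) and 5.08-fold in replicate 2 (4.68 to 5.53), so the ratio changed 2.99-fold between the libraries. Mir195a was higher and Mir497 lower in replicate 2. Their hairpins are printed with the mature arms in capitals, since this pair differed most.
Mir497: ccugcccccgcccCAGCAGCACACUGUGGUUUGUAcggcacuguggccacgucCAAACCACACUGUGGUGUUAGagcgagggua
Mir195a: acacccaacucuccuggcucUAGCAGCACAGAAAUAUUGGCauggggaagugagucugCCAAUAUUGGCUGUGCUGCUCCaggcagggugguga

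The hairpin of Mir497 was the most GC-rich of the 6 at 61.9%, followed by Mir195a at 54.3%, and Mir16-2 was lowest at 36.8%. Mir15a and Mir16-1 were at a ratio of 0.976 in replicate 1 (0.946 to 1.01) and 0.660 in replicate 2 (0.627 to 0.695). Mir15b and Mir16-2 were at 1.24 (1.15 to 1.33) and 1.04 (0.942 to 1.15). In no cluster was the order of the mates beyond the replicate spread.

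For comparison, neighbouring miRNA genes on 1 strand, at most 10 kb apart and both of at least 10 CPM, formed 98 pairs including these 3. The ratio changed at least 2-fold between the libraries in 9 of the 98, or 9.18%, and in 1 of the 3 family pairs. The pair Mir195a and Mir497 had the third largest change of the 98, at 1.58 in log2, beside a median of 0.36. In assigned reads, Mir15a and Mir16-1 changed by 0.56 and Mir15b and Mir16-2 by 0.25. This set of pairs was defined after the values had been seen.

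**Figure D5:**
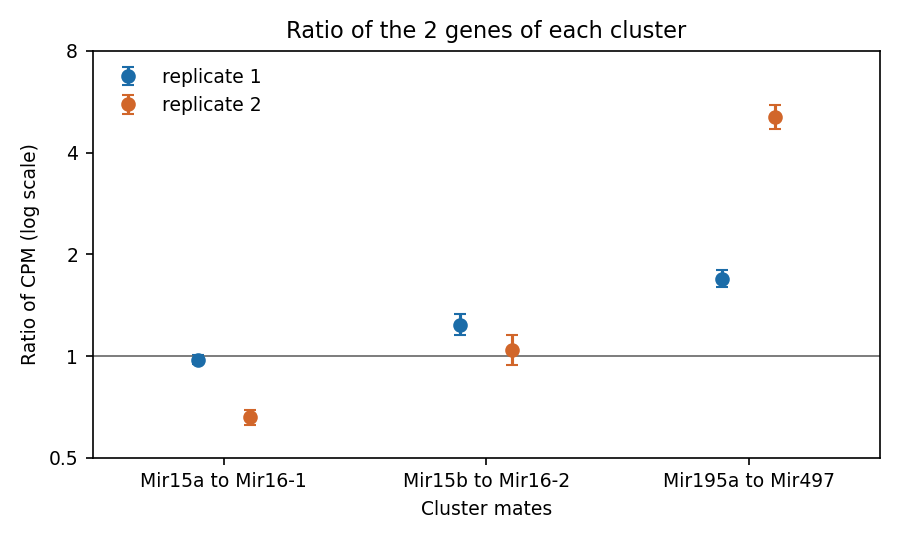
Ratio of the CPM of both genes of each cluster, on a log axis, in replicate 1 and replicate 2 with exact 95% intervals of read counting. The ratio of Mir195a to Mir497 is 1.70 and 5.08, while those of the other 2 clusters lie between 0.660 and 1.24. These other 2 hold for assigned reads only, since the mir-16 levels are lower limits.

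By reads assigned, the make-up of the family differed between the libraries. Mir16-1 and Mir16-2 are lower limits, so the shares leave out an unknown part of their reads, which the intervals do not cover. The Dleu2 cluster held 66.2% of the family's reads in replicate 1 (Wilson 95% interval 65.6 to 66.8) and 52.2% in replicate 2 (51.3 to 53.1). The cluster of Mir195a and Mir497 held 20.8% (20.3 to 21.3) and 35.0% (34.1 to 35.8). Mir195a alone made up 13.1% of the family in replicate 1 and 29.2% in replicate 2.

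Markers of cell types give the setting of these differences. The neuroendocrine marker Mir375 stood at 58718 and 82443 CPM in replicates 1 and 2, while Mir7b of the same list was at 4535 and 4423 CPM and Mir7-1, which shares 20 bases with Mir7-2, at 250 and 233 CPM. The endothelial Mir126a was at 92610 and 52519 CPM. Of 17 marker genes in 7 lists, 2 passed 2-fold between the replicates, the liver gene Mir122 and the erythroid Mir451a. Both were lower in replicate 2. Of all 280 tested genes 30 passed, or 10.7%, and the lists hold too few genes to tell their count from that share. By reads assigned, the 3 genes of the striated muscle list lay below the minimum mean level of the tested genes. Mir451a was at 5351 and 1949 CPM, and the other erythroid gene, Mir144, at 191 and 187 CPM. Mir122 was at 257 and 57.7 CPM, and the others of the liver and kidney list, Mir192 and Mir196a-2, at 29.2 and 28.5 CPM and at 204 and 190 CPM. Mir196a-2 shares 20 bases with Mir196a-1, so its count is a lower limit. The other 3 genes of these lists thus stayed within 2-fold. The smooth muscle pair of Mir143 and Mir145a summed to 29493 and 25630 CPM. The leukocyte list of Mir142, Mir150 and Mir155 summed to 571 and 620 CPM, and the striated muscle list to 3.69 and 3.57 CPM, all from Mir206. Mir1a-1 and Mir133a-1 were listed at 0, but each shares 20 bases with paralogs, so these counts are lower limits and set no upper one. The part of these cell types in the difference of Mir195a or Mir15a was not tested. In whole tissue, fewer cells of a type and less RNA per cell cannot be told apart.

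The genes closest to each member over the 2 libraries, by distance of log2(CPM + 1), lay at other loci. Mir542 was closest to Mir15b, at a distance of 0.039, with 262 and 259 CPM. Mir532 was closest to Mir16-1 (0.15), Mir129-2 to Mir16-2 (0.071), Mir381 to Mir497 (0.11) and Mir615 to Mir15a (0.31). Mir195a had no near neighbour: the closest was Mir598 at 0.44, with 628 and 1017 CPM, and then Mir299a at 0.59 and Mir214 at 0.60. Mir214 was itself called, at 355 and 831 CPM. With 2 libraries, such closeness describes a level and 1 difference only.

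Other cell-cycle miRNA clusters had lower sums than the family by reads assigned. The mir-17-92 cluster, whose miRNAs promote proliferation, held 0.185% of the reads in replicate 1 and 0.166% in replicate 2 over its 6 genes. It ran from Mir17 at 818 ± 143 CPM down to Mir19a at 0.604 ± 0.396 CPM, and Mir19b-1 and Mir92-1 share 20 bases with paralogs, so that their counts are lower limits. The related mir-106b-25 cluster held 0.142% and 0.163% over 3 genes, from Mir93 at 1015 ± 98.6 CPM to Mir25 at 136 ± 15.8 CPM. In each library both sums were below the family's 0.359% and 0.386%, and below the 0.218% and 0.241% of the 4 members that are not mir-16 genes. None of the genes of these 2 clusters with at least 10 CPM differed 2-fold between the replicates, beside 30 of all 280 such genes, or 10.7%. The clusters hold too few genes to tell this from that share.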

How the data were processed

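The authors deposited for each library a headerless table of raw read counts per miRNA gene, joined over strands, on the gene's strand and on the other one. Per the deposited text files, assembly mm10 and annotation GENCODE M21 were used. The columns carry no names, so their order was inferred from the layout of STAR's gene counts and the column totals, with aligner, version and trimming not given in the sources used here. Sense counts were scaled to CPM over 6783227 and 3084602 sense reads, and the mapping summary lines were left out. All 2202 gene IDs matched GENCODE M21, whose hairpins were used. Mature sequences came from RefSeq (GRCm38.p6), which held those of all 6 members. RefSeq hairpins matched those of GENCODE in start, end and sequence for all members but Mir15a, which had no hairpin entry there. The pseudocount was 1. Intervals were Wilson for shares and exact for ratios. Scaling alternatives used edgeR 4.0.16 and DESeq2 1.42.0, and other steps Python 3.11.15 with scipy 1.17.1.

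The members, lists and tests were chosen with earlier results of these data known. Named genes were the 6 members, genes with their seed, opposite-strand partners, the 3 nearest genes of each member, of which the text gives 3 for Mir195a and the closest for the others, the highest and lowest gene of 2 comparison clusters, and listed cell type markers. Mir195b, listed as such a partner, lies on another chromosome and entered through its seed, and Mir503, which lacks the seed, was kept as a listed example. Mir19b-1 and Mir92-1 are named outside the rule, for their shared bases. Alternatives were the column for both strands, other scaling, pseudocounts, minimum levels and denominators, and leaving out a replicate. Calls and intervals were tested on simulated data.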

Additional observations from a re-analysis of the deposited data

How the results depend on the processing

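The family's share of 0.373% became 0.184% over all reads of the tables, and 0.264% when genes that share 20 bases with another hairpin were left out of both sides, which removes both mir-16 genes. The share of Mir322 among assigned reads of genes with the seed, 84.2%, became 89.6% without Mir16-1 and Mir16-2. This alternative was chosen after seeing the data and does not bound the effect of multimapping reads. Mir195a was the 1 member past 2-fold under every scaling, pseudocount, minimum level and strand column tried. Of the 54 alternatives run, 40 left a value the same and 14 moved it past a set limit, mostly the replicate SD or the counting interval. For shares and ratios, leaving out a replicate could not pass that limit. A reversal could be recorded only for the called difference of Mir195a. That difference kept its direction with TMM, DESeq2 and a pseudocount of 0.5. Members at 10 CPM or more were 5 in place of 6 in the column for both strands. With TMM or DESeq2 scaling the uncalled Mir16-1 difference changed sign, and the counting intervals of Mir16-1, Mir15b and Mir16-2 changed on whether they held 0. The ratio of Mir195a to Mir497 could not be computed from the column for both strands, where Mir497 is at 0. Leaving out a replicate gave ratios of 1.70 to 5.08 for this pair. For Mir15a to Mir16-1 it gave 0.660 to 0.976 and for Mir15b to Mir16-2 1.04 to 1.24, by reads assigned. A replicate difference has no value with 1 library. The share of neighbouring pairs past 2-fold, 9.18%, was 12.9% at a minimum of 100 CPM and 13.2% without chromosome 12.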
